A study of Mus musculus with 8 samples.

Results

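Cachexia, the wasting of muscle in cancer, was followed in the tibialis anterior, a fast muscle of the lower leg, of Balb/c mice with metastases of 4T1, a mouse breast cancer line. The muscle of cachectic mice (4T1 muscle below) was compared with that of healthy Balb/c mice (healthy muscle), and every gene that the authors' Cuffdiff test listed for this comparison was taken: 4334 genes, of 6028 that are listed in either comparison of the series. The series also holds CD2F1 mice, cachectic from metastases of the colon cancer line C26m2 or healthy, with 2 libraries in each of the 4 groups and mice aged 12 to 14 weeks throughout. Both tumour lines carried luciferase, a light-giving reporter, and grew after injection until they were cut out 2 to 3 weeks later. The mice were killed 5 weeks after injection, once imaging showed metastases and signs of cachexia had appeared. Healthy mice were of the same strain and age, and since only cachectic mice are recorded as injected and operated on, injection, surgery and metastatic cancer cannot be told apart. The labels give neither the sex of the mice nor the animal behind each library.

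Muscle fibres hold stacked filaments of actin and myosin, a calcium store that triggers contraction, and enzymes that make ATP from glycogen, glucose and fat. In wasting muscle, ubiquitin ligases such as Trim63 (MuRF1) and Fbxo32 (atrogin-1) mark filament proteins for the proteasome, and FoxO factors and the glucocorticoid receptor are known to switch these ligases on. Metallothioneins, small proteins that bind zinc, and the zinc importer Slc39a14 are further genes known from wasting muscle.

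Each group has 1 value per gene in the authors' table, in FPKM (fragments per kilobase of transcript and library depth, a level scaled for length and library size), so no value carries an SD and depth is unknown. A gene is called higher or lower where the authors' deposited table lists it, at q (a p-value adjusted for the number of genes) of 0.05 or less. Folds are ratios of the group FPKM values, and q is given where it was above 0.01. Of about 13218 genes tested, as estimated from the listed p and q values, 32.8% were listed, 17.4% higher and 15.4% lower in 4T1 muscle. Shares of gene lists below are over all members, tested or not, so they can understate the share among tested members. The higher genes numbered 2303, with a median of 2.78-fold, and the lower genes 2031, with a median of 3.09-fold. Among 2327 abundant genes, those of 10 FPKM or more in the group with the larger value, 1434 were higher and 893 were lower. Just under that limit stood Fn1, at 1.45 FPKM in 4T1 muscle, against 9.99 FPKM in healthy muscle, and just above it Tmem101, at 3.01 FPKM in 4T1 muscle, against 10.01 FPKM in healthy muscle.

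**Figure D1:**
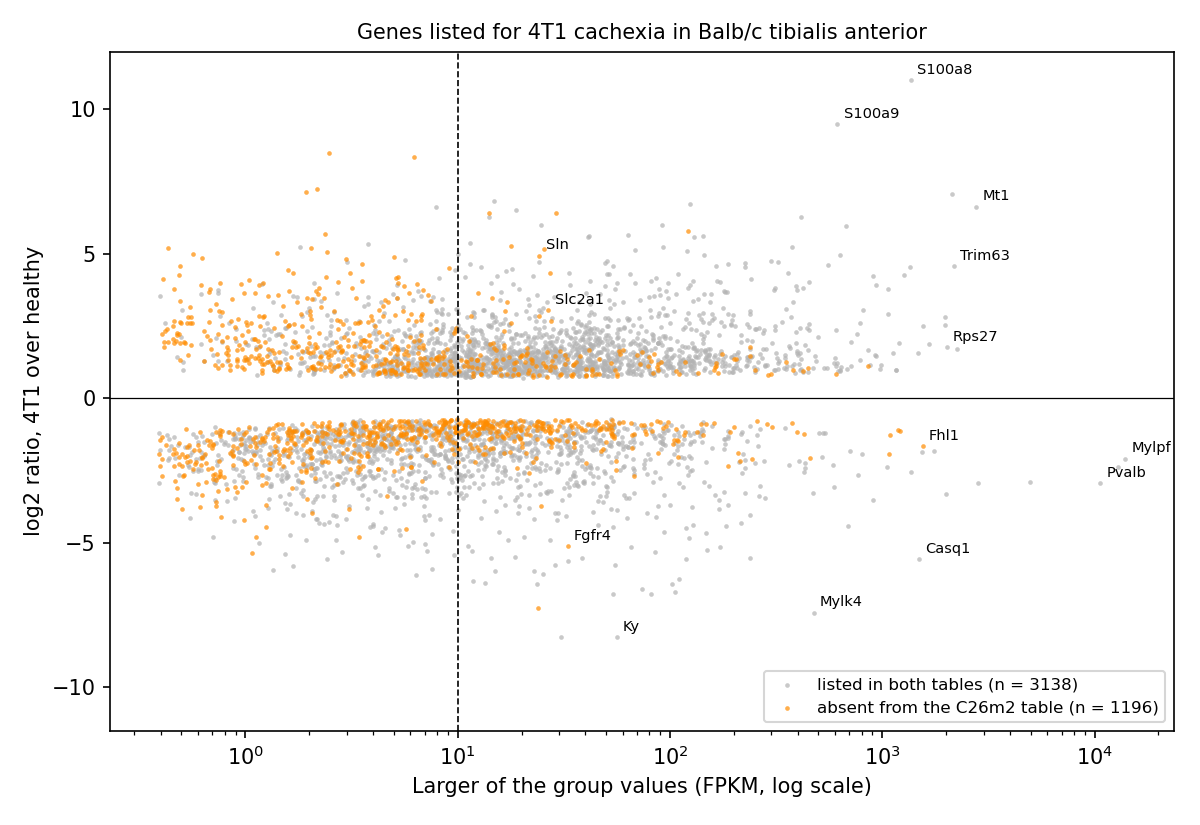
Each point is 1 of the 4334 listed genes, with the larger of its group values (FPKM, log scale) across and its log2 ratio of 4T1 over healthy muscle up; the dashed line marks 10 FPKM. S100a8 and S100a9 lie highest, Ky and Mylk4 among the lowest, and the 1196 genes absent from the C26m2 table (orange) include 798 under 10 FPKM.

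The tissue is named by the labels, and markers of fast skeletal muscle cannot single out tibialis anterior. Of 20 genes that mark fast skeletal muscle, 4 were listed, each lower in 4T1 muscle: Myod1, given further on, and 3 that stayed above 1000 FPKM in both groups. Mylpf, a regulatory light chain of fast myosin, had 3285 FPKM in 4T1 muscle, against 13985 FPKM in healthy muscle. Myl1, the essential light chain, had 2499 FPKM in 4T1 muscle, against 12839 FPKM in healthy muscle, and Pvalb, the calcium buffer of fast fibres, had 1392 FPKM in 4T1 muscle, against 10602 FPKM in healthy muscle. The other 16, such as Acta1 and Myh4, are absent from the table, which says nothing of their level. In whole muscle, fewer cells of a type and less RNA per cell cannot be told apart.

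Promoters of some members with the largest changes are shown, since metallothionein promoters carry metal response elements, the Trim63 promoter a FoxO motif, and fast muscle promoters the E-box bound by myogenic factors. They are RefSeq sequences of the build GRCm38.p6, 250 bases before to 50 after the annotated start, read along the gene, and capitals mark the motif on either strand. Metal response elements (TGCACNC or TGCGCNC, N being any base) are in capitals for Mt1 (chr8:94178839-94179138, plus strand) and Mt2 (chr8:94172368-94172667, plus strand), the FoxO motif GTAAACA for Trim63 (chr4:134314870-134315169, plus strand) and the E-box CAGCTG for Mylpf (chr7:127211358-127211657, plus strand), Myl1 (chr1:66945007-66945306, minus strand) and Casq1 (chr1:172219846-172220145, minus strand).
Mt1: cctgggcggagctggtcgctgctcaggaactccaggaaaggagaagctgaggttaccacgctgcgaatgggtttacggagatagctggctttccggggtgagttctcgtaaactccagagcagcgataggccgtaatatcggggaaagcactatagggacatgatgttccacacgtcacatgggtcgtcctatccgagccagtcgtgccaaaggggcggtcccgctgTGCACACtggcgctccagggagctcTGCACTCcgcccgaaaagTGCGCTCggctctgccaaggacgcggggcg
Mt2: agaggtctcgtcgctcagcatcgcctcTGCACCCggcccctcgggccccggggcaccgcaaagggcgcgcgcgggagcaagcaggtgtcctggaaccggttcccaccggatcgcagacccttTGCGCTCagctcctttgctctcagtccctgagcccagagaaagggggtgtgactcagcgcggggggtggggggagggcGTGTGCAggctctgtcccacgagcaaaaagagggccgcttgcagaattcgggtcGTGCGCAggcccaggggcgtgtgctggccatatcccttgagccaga
Trim63: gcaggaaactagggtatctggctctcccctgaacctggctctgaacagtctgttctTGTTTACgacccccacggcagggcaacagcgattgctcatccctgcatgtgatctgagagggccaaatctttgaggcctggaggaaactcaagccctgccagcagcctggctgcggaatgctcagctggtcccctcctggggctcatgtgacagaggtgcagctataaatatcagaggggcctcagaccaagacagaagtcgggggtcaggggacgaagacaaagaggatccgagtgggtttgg
Mylpf: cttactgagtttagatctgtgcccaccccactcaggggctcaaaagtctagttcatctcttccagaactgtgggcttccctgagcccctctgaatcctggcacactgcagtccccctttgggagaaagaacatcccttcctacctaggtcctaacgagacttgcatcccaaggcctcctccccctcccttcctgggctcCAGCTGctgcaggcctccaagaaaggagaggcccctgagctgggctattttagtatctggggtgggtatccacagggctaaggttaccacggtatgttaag
Myl1: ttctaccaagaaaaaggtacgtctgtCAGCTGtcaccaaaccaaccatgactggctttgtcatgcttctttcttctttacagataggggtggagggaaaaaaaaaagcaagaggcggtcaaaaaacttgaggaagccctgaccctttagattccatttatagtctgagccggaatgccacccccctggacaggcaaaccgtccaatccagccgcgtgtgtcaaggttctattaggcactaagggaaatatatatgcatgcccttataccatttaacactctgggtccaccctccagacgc
Casq1: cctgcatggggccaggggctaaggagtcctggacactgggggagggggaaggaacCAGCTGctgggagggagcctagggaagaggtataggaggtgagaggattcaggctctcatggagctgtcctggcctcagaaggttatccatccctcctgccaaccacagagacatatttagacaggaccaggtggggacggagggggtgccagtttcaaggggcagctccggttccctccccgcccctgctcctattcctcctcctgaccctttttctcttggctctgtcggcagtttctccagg
Mt2 holds 4 metal response elements, Mt1 holds 3, and each of the other promoters shown holds its motif 1 time. They were chosen from 11 promoters searched for 1 motif each, of which S100a8 (C/EBP motif TTGCNNAA) and Ddit4 (E-box) held no match in this window. Of all 32851 promoters of this length, 25.7% hold a metal response element, 3.65% the FoxO motif and 16.3% the E-box, so a match describes a sequence and is not a site of binding. The promoter table held 78.0% of the genes that were at least 2-fold higher and 74.7% of those at least 2-fold lower, too few to compare motif shares between them.

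The genes with the largest relative increase included a pair of calcium-binding proteins of neutrophils. S100a8 had 1367 FPKM in 4T1 muscle, against 0.666 FPKM in healthy muscle, with q = 0.0348 in the authors' deposited table. S100a9, its partner in calprotectin, had 615 FPKM in 4T1 muscle, against 0.8603 FPKM in healthy muscle. Both were below 1 FPKM in healthy muscle. The metallothioneins gained most in FPKM of all listed genes, with smaller ratios than the S100 pair: Mt1 had 2774 FPKM in 4T1 muscle, against 27.96 FPKM in healthy muscle and Mt2 had 2138 FPKM in 4T1 muscle, against 15.9 FPKM in healthy muscle, increases of 99.2-fold and 134-fold. Slc39a14, the zinc importer, had 145 FPKM in 4T1 muscle, against 4.61 FPKM in healthy muscle, a 31.4-fold increase.

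Other abundant genes with steep increases were Lcn2 (lipocalin-2, an iron-siderophore carrier), at 125 FPKM in 4T1 muscle, against 1.17 FPKM in healthy muscle, and Il1r2, the decoy receptor of interleukin-1, at 14.02 FPKM in 4T1 muscle, against 0.181 FPKM in healthy muscle. Doc2b, a calcium sensor of vesicle fusion, had 14.8 FPKM in 4T1 muscle, against 0.1296 FPKM in healthy muscle. Acot1, a thioesterase of fatty acyl-CoA, had 18.9 FPKM in 4T1 muscle, against 0.205 FPKM in healthy muscle. The 15 largest increases by ratio among abundant genes ranged in fold from 55.8 to 2052. Maff, a small Maf transcription factor, had 91.5 FPKM in 4T1 muscle, against 1.42 FPKM in healthy muscle, and the keratin gene Krt80 had 24.6 FPKM in 4T1 muscle, against 0.383 FPKM in healthy muscle. 8430408G22Rik, now named Depp1 and known as a FoxO target, had 414 FPKM in 4T1 muscle, against 5.35 FPKM in healthy muscle. The non-coding 2410006H16Rik had 678 FPKM in 4T1 muscle, against 10.9 FPKM in healthy muscle.

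Genes of protein breakdown and of translation were among those with the largest gains in FPKM. Trim63 had 2179.6 FPKM in 4T1 muscle, against 91.6 FPKM in healthy muscle and Fbxo32 had 901 FPKM in 4T1 muscle, against 47.8 FPKM in healthy muscle, increases of 23.8-fold and 18.8-fold. Ubb, a polyubiquitin gene, had 1970.1 FPKM in 4T1 muscle, against 341 FPKM in healthy muscle, and Sqstm1, the autophagy receptor p62, had 1556 FPKM in 4T1 muscle, against 275 FPKM in healthy muscle. Fam134b, now named Retreg1, a receptor for autophagy of the endoplasmic reticulum, had 1358 FPKM in 4T1 muscle, against 58.9 FPKM in healthy muscle. Got1, the cytosolic aspartate aminotransferase, had 1974 FPKM in 4T1 muscle, against 279.7 FPKM in healthy muscle. These transcripts were all above 1000 FPKM in 4T1 muscle, except Fbxo32.

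**Figure D2:**
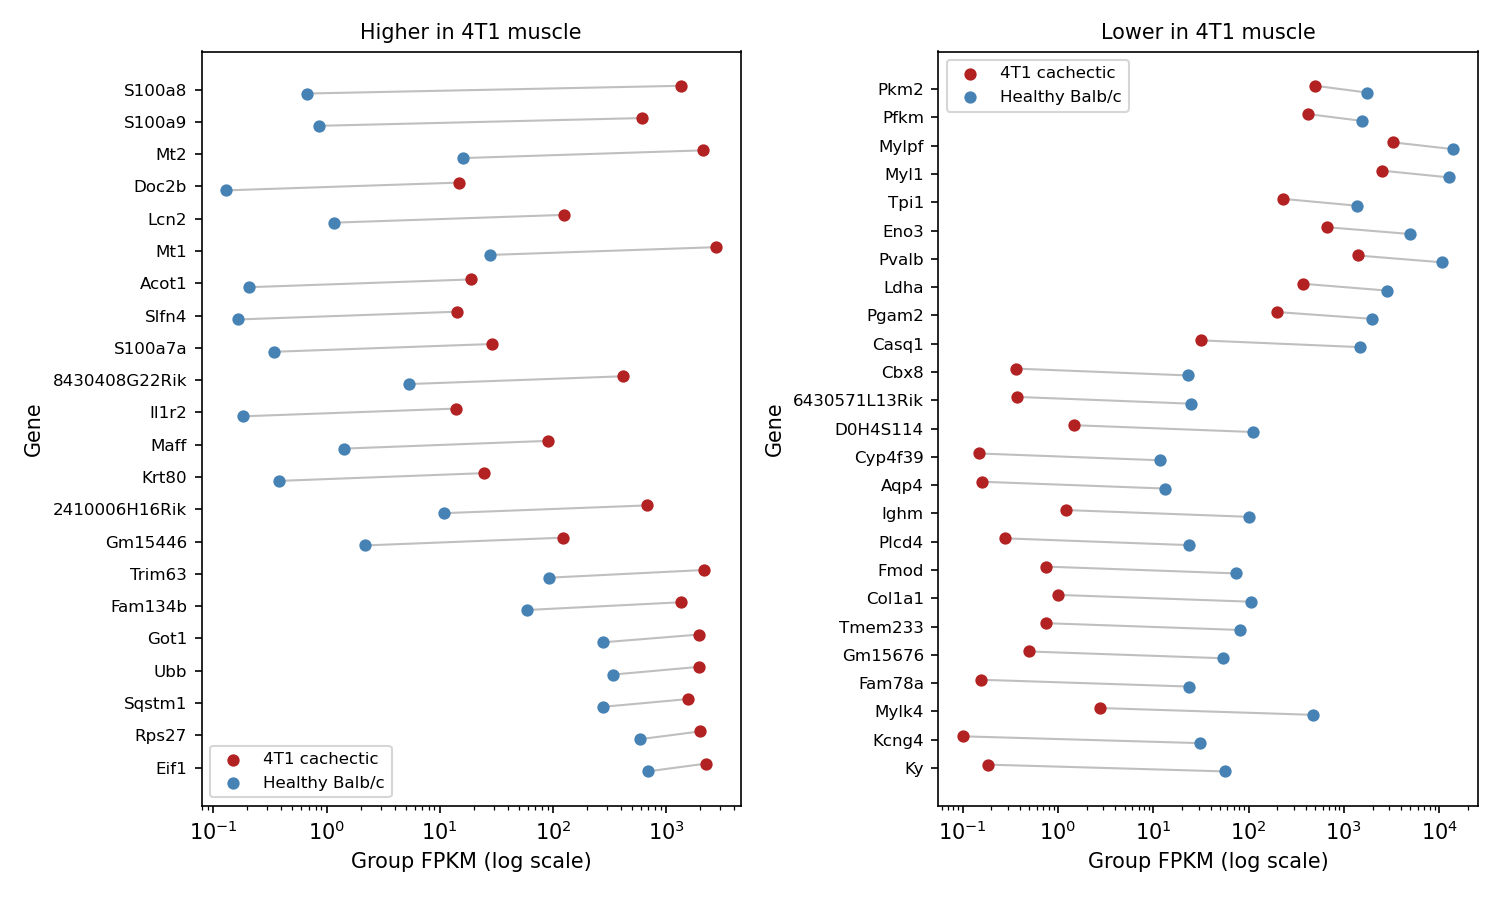
Group FPKM (log scale) of the abundant genes with the largest ratios and the largest gains or losses in FPKM, in 4T1 cachectic muscle (red) and healthy Balb/c muscle (blue), higher genes on the left and lower genes on the right. S100a8 and S100a9 start from the lowest healthy values relative to their 4T1 values, and Mylpf, Myl1 and Pvalb stay above 1000 FPKM in both groups.

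The light chains Mylpf and Myl1, given above, had the largest losses in FPKM. Glycolytic genes given below, such as Eno3 and Ldha, were also among the 10 largest losses. Of 26 genes of the myosin motor and thick filament, 10 were listed (38.5%, against 32.8% of all tested genes), 9 lower and 1 higher. Mylk4, a myosin light chain kinase family member, had 2.79 FPKM in 4T1 muscle, against 476 FPKM in healthy muscle, a loss of 171-fold. Mybph, a relative of myosin-binding protein C, had 1.02 FPKM in 4T1 muscle, against 54.9 FPKM in healthy muscle. Smyd1, a methyltransferase that helps myosin assembly, had 25.2 FPKM in 4T1 muscle, against 263 FPKM in healthy muscle, and its partner chaperone Unc45b had 39.9 FPKM in 4T1 muscle, against 108 FPKM in healthy muscle (q = 0.0486 in the authors' deposited table). The slow light chains fell too, Myl2 to 2.44 FPKM in 4T1 muscle, against 13.3 FPKM in healthy muscle and Myl3 to 3.66 FPKM in 4T1 muscle, against 12.5 FPKM in healthy muscle. The only higher member was Myh13, the extraocular myosin, which stayed under 1 FPKM at 0.395 FPKM in 4T1 muscle, against 0.0342 FPKM in healthy muscle.

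Among 52 genes of the thin filament and Z-disc, 24 were listed, 18 lower and 6 higher. Ky, a Z-disc protein whose loss causes kyphoscoliosis in mice, had 0.182 FPKM in 4T1 muscle, against 56.2 FPKM in healthy muscle, the largest fold loss of all abundant genes at 309-fold. Lmod3, which nucleates actin filaments, had 2.47 FPKM in 4T1 muscle, against 53.99 FPKM in healthy muscle, and Ldb3, a Z-disc scaffold, had 78.8 FPKM in 4T1 muscle, against 905 FPKM in healthy muscle. The leiomodins moved in opposite directions: Lmod2 had 352 FPKM in 4T1 muscle, against 40.96 FPKM in healthy muscle. Xirp1, a repair protein of damaged myofibres, rose to 149 FPKM in 4T1 muscle, against 30.6 FPKM in healthy muscle, and Ankrd2, a stretch-responsive ankyrin repeat protein, to 369 FPKM in 4T1 muscle, against 109 FPKM in healthy muscle. The remaining 3 higher members were troponins of slow or developing muscle at low levels: Tnnt1 at 3.703 FPKM in 4T1 muscle, against 0.926 FPKM in healthy muscle, Tnni1 at 1.99 FPKM in 4T1 muscle, against 0.452 FPKM in healthy muscle and Tnnt2 at 3.29 FPKM in 4T1 muscle, against 0.541 FPKM in healthy muscle.

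The calcium store and the membrane currents showed the same direction in most listed members. Of 40 genes of excitation and calcium release, 19 were listed, 17 of them lower. Casq1, the calcium-binding protein of the store, had 31.3 FPKM in 4T1 muscle, against 1491 FPKM in healthy muscle, a loss of 47.6-fold. Sypl2 (mitsugumin-29) and Jph2 (junctophilin-2), which shape the junction between membrane and store, had 5.22 FPKM in 4T1 muscle, against 239 FPKM in healthy muscle for Sypl2 and 8.66 FPKM in 4T1 muscle, against 184 FPKM in healthy muscle for Jph2. Stac3, needed to couple the membrane to release, had 25.8 FPKM in 4T1 muscle, against 279.9 FPKM in healthy muscle. The higher members were Sln (sarcolipin, a brake on the calcium pump), at 24.2 FPKM in 4T1 muscle, against 0.791 FPKM in healthy muscle, and Tmem38b, a counter-ion channel of the store, at 99.8 FPKM in 4T1 muscle, against 42.9 FPKM in healthy muscle. The calcium pump genes and Ryr1 are not in the table.

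Among 33 genes of membrane excitability, 19 were listed, 16 lower and 3 higher. Kcng4, a modifying potassium channel subunit, had 0.101 FPKM in 4T1 muscle, against 30.8 FPKM in healthy muscle, and Clcn1, the chloride channel that keeps the fibre stable, had 6.73 FPKM in 4T1 muscle, against 88.2 FPKM in healthy muscle. The sodium channel Scn4a had 22.2 FPKM in 4T1 muscle, against 42.3 FPKM in healthy muscle (q = 0.0217 in the authors' deposited table), and its subunit Scn4b had 19.4 FPKM in 4T1 muscle, against 145 FPKM in healthy muscle. Aqp4, the water channel of fast fibres, had 0.161 FPKM in 4T1 muscle, against 13.4 FPKM in healthy muscle.

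At the neuromuscular junction 16 of 32 genes were listed, 9 higher and 7 lower, with no common direction. Runx1 and Myog, transcription factors induced by loss of nerve activity, had 9.69 FPKM in 4T1 muscle, against 0.451 FPKM in healthy muscle for Runx1 and 37.3 FPKM in 4T1 muscle, against 3.74 FPKM in healthy muscle for Myog. Musk, the receptor kinase that clusters acetylcholine receptors, had 5.16 FPKM in 4T1 muscle, against 0.467 FPKM in healthy muscle. Ache, which splits acetylcholine, had 1.47 FPKM in 4T1 muscle, against 19.4 FPKM in healthy muscle, and the receptor subunits Chrnb1 and Chrne had 11.8 FPKM in 4T1 muscle, against 32.8 FPKM in healthy muscle for Chrnb1 and 2.24 FPKM in 4T1 muscle, against 8.76 FPKM in healthy muscle for Chrne.

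Of 53 transcription factors of fibre identity and myogenesis, 18 were listed, 13 lower and 5 higher. This share of 34.0%, over members tested or not, is close to the 32.8% of all tested genes. Mef2c had 9.48 FPKM in 4T1 muscle, against 127 FPKM in healthy muscle and Myod1 had 2.31 FPKM in 4T1 muscle, against 19.3 FPKM in healthy muscle. Maf, a large Maf factor linked to fast fibres, had 4.83 FPKM in 4T1 muscle, against 49.8 FPKM in healthy muscle. Myf6 (MRF4) had 11.3 FPKM in 4T1 muscle, against 52.5 FPKM in healthy muscle, so 2 of the myogenic regulatory factors fell while Myog rose. Vgll2, a muscle cofactor of TEAD proteins, had 112 FPKM in 4T1 muscle, against 45.7 FPKM in healthy muscle, and Tead4 had 8.34 FPKM in 4T1 muscle, against 1.07 FPKM in healthy muscle.

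Most listed glycolytic genes fell. Of 60 genes of glucose uptake, glycogen and glycolysis, 30 were listed, 24 lower and 6 higher, with a median log2 ratio of -1.84 against 0.86 over all listed genes. Their lower members summed to 2910 FPKM in 4T1 muscle and 16935 FPKM in healthy muscle. Eno3, muscle enolase, had 663 FPKM in 4T1 muscle, against 4944 FPKM in healthy muscle. Pgam2, muscle phosphoglycerate mutase, had 199 FPKM in 4T1 muscle, against 1998 FPKM in healthy muscle, and Tpi1, triosephosphate isomerase, had 232 FPKM in 4T1 muscle, against 1371 FPKM in healthy muscle. Ldha, which makes lactate, had 371 FPKM in 4T1 muscle, against 2831 FPKM in healthy muscle, and Slc16a3 (MCT4), which exports it, had 14.5 FPKM in 4T1 muscle, against 238 FPKM in healthy muscle (q = 0.0106 in the authors' deposited table). Pfkm, muscle phosphofructokinase, had 419 FPKM in 4T1 muscle, against 1533 FPKM in healthy muscle (q = 0.0111 in the authors' deposited table), and Pkm2, now named Pkm, had 502 FPKM in 4T1 muscle, against 1760.2 FPKM in healthy muscle.

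The phosphorylase kinase subunits that start glycogen breakdown were all lower where listed: Phka1 at 15.9 FPKM in 4T1 muscle, against 163 FPKM in healthy muscle, Phkg1 at 22.96 FPKM in 4T1 muscle, against 225 FPKM in healthy muscle and Phkb at 57.6 FPKM in 4T1 muscle, against 220.4 FPKM in healthy muscle. Gpd1, glycerol-3-phosphate dehydrogenase, had 10.9 FPKM in 4T1 muscle, against 215 FPKM in healthy muscle. The 6 higher members include other enzymes and regulators of glucose use. Slc2a1 (GLUT1), the basal glucose transporter, had 26.7 FPKM in 4T1 muscle, against 3.198 FPKM in healthy muscle. Gpi1, glucose-6-phosphate isomerase, had 1471 FPKM in 4T1 muscle, against 495 FPKM in healthy muscle (q = 0.0148 in the authors' deposited table). Pfkfb3, which makes an activator of phosphofructokinase, had 146 FPKM in 4T1 muscle, against 45.5 FPKM in healthy muscle. Ldhb, the lactate dehydrogenase subunit of oxidative tissue, had 200.2 FPKM in 4T1 muscle, against 77.2 FPKM in healthy muscle. Txnip, a brake on glucose uptake, had 761 FPKM in 4T1 muscle, against 165 FPKM in healthy muscle, and Pdp2, a pyruvate dehydrogenase phosphatase, had 1.502 FPKM in 4T1 muscle, against 0.485 FPKM in healthy muscle.

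**Figure D3:**
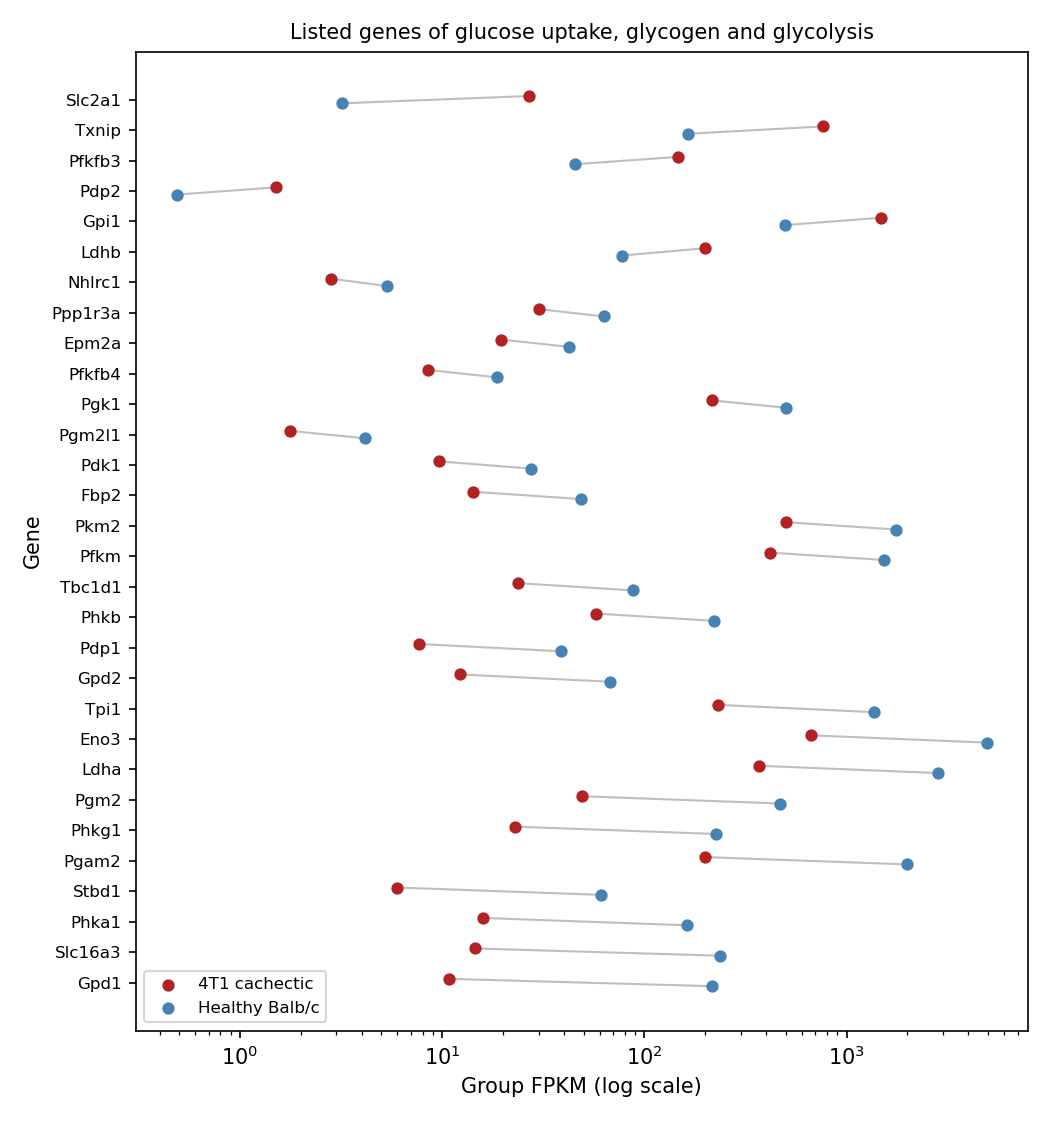
Group FPKM (log scale) of the 30 listed genes of glucose uptake, glycogen and glycolysis in 4T1 cachectic muscle (red) and healthy Balb/c muscle (blue), sorted by ratio. The 6 at the top are higher in 4T1 muscle, and the 24 below them are lower, down to Gpd1.

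Fat genes ran the other way, with 21 of 30 listed members higher of 66 in the list. Pnpla2, the main triglyceride lipase, had 786 FPKM in 4T1 muscle, against 130.2 FPKM in healthy muscle, while its inhibitor G0s2 had 2.74 FPKM in 4T1 muscle, against 31.2 FPKM in healthy muscle. Lpl, which takes up fat from blood lipoproteins, had 304 FPKM in 4T1 muscle, against 79.8 FPKM in healthy muscle, and the fatty acid transporter Cd36 had 355 FPKM in 4T1 muscle, against 165 FPKM in healthy muscle (q = 0.0292 in the authors' deposited table). Plin4, a coat protein of lipid droplets, had 314 FPKM in 4T1 muscle, against 54.9 FPKM in healthy muscle. Ppargc1a (PGC-1alpha), a coactivator of mitochondrial genes, had 84.1 FPKM in 4T1 muscle, against 7.24 FPKM in healthy muscle, while its relative Ppargc1b had 0.477 FPKM in 4T1 muscle, against 2.87 FPKM in healthy muscle. Among lower members, Gpam, the first enzyme of triglyceride synthesis, had 6.92 FPKM in 4T1 muscle, against 67.7 FPKM in healthy muscle, and Oxct1, which burns ketone bodies, had 44.6 FPKM in 4T1 muscle, against 126 FPKM in healthy muscle.

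Of the enzymes that break down branched-chain amino acids, Bckdha, Bckdhb and Dbt, the subunits of the committed step, were higher: Bckdha had 162 FPKM in 4T1 muscle, against 68.4 FPKM in healthy muscle, Bckdhb had 74.9 FPKM in 4T1 muscle, against 29.7 FPKM in healthy muscle and Dbt had 25.02 FPKM in 4T1 muscle, against 9.33 FPKM in healthy muscle. Bckdk, the kinase that switches this complex off, was lower, at 85.3 FPKM in 4T1 muscle, against 192 FPKM in healthy muscle (q = 0.0263 in the authors' deposited table). In all, 19 of 28 listed genes of amino acid handling were higher, of 52 in the list. Glul, glutamine synthetase, had 933 FPKM in 4T1 muscle, against 62.01 FPKM in healthy muscle. Slc7a8, an amino acid exchanger, had 21.8 FPKM in 4T1 muscle, against 2.31 FPKM in healthy muscle. Psph, the last enzyme of serine synthesis, had 1.33 FPKM in 4T1 muscle, against 11.3 FPKM in healthy muscle.

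Purine handling changed enzymes of the same step in opposite directions. Ampd1, the AMP deaminase of adult muscle, had 32.2 FPKM in 4T1 muscle, against 693 FPKM in healthy muscle, a loss of 21.5-fold. Ampd3, its isozyme of red cells and other tissues, had 144 FPKM in 4T1 muscle, against 2.97 FPKM in healthy muscle, a gain of 48.5-fold. Ak1, adenylate kinase, had 122 FPKM in 4T1 muscle, against 766 FPKM in healthy muscle, and Ckmt2, mitochondrial creatine kinase, had 282 FPKM in 4T1 muscle, against 1075 FPKM in healthy muscle. Of 37 genes in this list 14 were listed (37.8%, against 32.8% of all tested genes), 5 higher and 9 lower. Polyamine genes were lower on the side of synthesis, with Amd1 at 4.62 FPKM in 4T1 muscle, against 36.5 FPKM in healthy muscle and Sms at 17.5 FPKM in 4T1 muscle, against 49.9 FPKM in healthy muscle. The listed genes of polyamine recycling that rose were Sat1, at 99.9 FPKM in 4T1 muscle, against 23.2 FPKM in healthy muscle, and Paox, at 14.5 FPKM in 4T1 muscle, against 2.06 FPKM in healthy muscle, while the oxidase Smox had 10.3 FPKM in 4T1 muscle, against 32.7 FPKM in healthy muscle. Amd1 and Amd2 are near-identical copies whose reads the counting could have split.

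Few genes of mitochondrial respiration were listed. For complex I, 8 of 46 subunits and assembly factors were listed, 17.4% of the list, all lower, close to the 15.4% of all tested genes that were listed as lower. Ndufs1 had 82.8 FPKM in 4T1 muscle, against 232 FPKM in healthy muscle and Ndufc1 had 181 FPKM in 4T1 muscle, against 427 FPKM in healthy muscle (q = 0.0423 in the authors' deposited table). Of 78 mitochondrial ribosomal proteins 14 were listed (17.9%, against 32.8% of all tested genes), 3 higher and 11 lower. Mrpl41 was the steepest increase at 199 FPKM in 4T1 muscle, against 26.8 FPKM in healthy muscle.

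Most listed genes of protein synthesis were higher. Of 83 cytosolic ribosomal proteins 52 were listed, 62.7% of the list, and all 52 were higher, with a median log2 ratio of 1.06 and folds from 1.75 to 3.63. At q of 0.01 or less in the authors' deposited table the count was 22. Rps27 had 2014 FPKM in 4T1 muscle, against 595 FPKM in healthy muscle, and Rpl3 had 70.4 FPKM in 4T1 muscle, against 19.4 FPKM in healthy muscle. Of 56 translation initiation factors and regulators 25 were listed, 23 higher, of which 12 had q of 0.01 or less in the authors' deposited table. Eif1, which selects the start codon, had 2239 FPKM in 4T1 muscle, against 688 FPKM in healthy muscle (q = 0.0143 in the authors' deposited table), and Eif3a, a scaffold of the initiation complex, had 119 FPKM in 4T1 muscle, against 17.8 FPKM in healthy muscle. The exceptions include the cap-binding protein Eif4e, at 19.7 FPKM in 4T1 muscle, against 63.2 FPKM in healthy muscle, while its inhibitor Eif4ebp1 had 392 FPKM in 4T1 muscle, against 26.6 FPKM in healthy muscle. Among 53 DEAD and DEAH box helicases, 18 were listed (34.0%, against 32.8% of all tested genes), 17 of them higher. Ribosomal protein genes have many processed copies in the genome, which the authors' counting could have split.

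FPKM are shares of a library, so the most abundant genes bear on all others. The 35 listed genes of 1000 FPKM or more summed to 42865 FPKM in 4T1 muscle and 65996 FPKM in healthy muscle. The part of this in the increases of ribosomal proteins and other moderate changes was not tested.

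Above the ribosome, 31 of 55 genes of insulin and mTOR signalling were listed, 19 higher and 12 lower. Genes that restrain the pathway were found in both directions: Ddit4 (REDD1) had 375 FPKM in 4T1 muscle, against 10.02 FPKM in healthy muscle and Sesn1 (sestrin-1) had 359 FPKM in 4T1 muscle, against 17.9 FPKM in healthy muscle, while Ddit4l (REDD2), a relative of Ddit4, had 20.9 FPKM in 4T1 muscle, against 98.6 FPKM in healthy muscle. Irs2, an adaptor of the insulin receptor, had 50.4 FPKM in 4T1 muscle, against 1.88 FPKM in healthy muscle, and the kinases Akt1 and Mtor had 187 FPKM in 4T1 muscle, against 24.8 FPKM in healthy muscle for Akt1 and 44.3 FPKM in 4T1 muscle, against 10.98 FPKM in healthy muscle for Mtor. Prkag3, the fast-muscle subunit of AMP kinase, had 2.18 FPKM in 4T1 muscle, against 46 FPKM in healthy muscle, and Grb14, an insulin receptor inhibitor, had 3.97 FPKM in 4T1 muscle, against 33.4 FPKM in healthy muscle.

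Genes of protein breakdown rose as well. Of 43 proteasome subunits 24 were listed, 23 higher, with a median log2 ratio of 1.42 over the listed members. Psmd4, a ubiquitin receptor of the proteasome, had 445 FPKM in 4T1 muscle, against 81.9 FPKM in healthy muscle, and Psma7, a core subunit, had 501 FPKM in 4T1 muscle, against 116 FPKM in healthy muscle. The exception was Psmd5, an assembly chaperone, at 5.72 FPKM in 4T1 muscle, against 10.8 FPKM in healthy muscle (q = 0.0145 in the authors' deposited table). Among 46 ubiquitin ligases and partners tied to atrophy 20 were listed, 15 higher and 5 lower. Fbxo30 (MUSA1) had 15.4 FPKM in 4T1 muscle, against 4.34 FPKM in healthy muscle and Ubr2, an N-end rule ligase, had 60.01 FPKM in 4T1 muscle, against 16.7 FPKM in healthy muscle. Trim55 (MuRF2), a close relative of Trim63, had 7.05 FPKM in 4T1 muscle, against 23.1 FPKM in healthy muscle, and Asb2, a ligase adaptor that restrains muscle mass, had 57.5 FPKM in 4T1 muscle, against 244 FPKM in healthy muscle.

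All 7 listed Asb adaptors, of 18 (38.9%, against 32.8% of all tested genes), were lower. Asb18 had 0.309 FPKM in 4T1 muscle, against 14.3 FPKM in healthy muscle. Of 34 calpains, caspases, cathepsins and related proteases 14 were listed, 8 higher and 6 lower. The lysosomal proteases Ctsl and Ctsd rose, Ctsl to 1260.5 FPKM in 4T1 muscle, against 66.2 FPKM in healthy muscle and Ctsd to 1195 FPKM in 4T1 muscle, against 318 FPKM in healthy muscle, while the cathepsin Ctsc fell to 7.901 FPKM in 4T1 muscle, against 23.1 FPKM in healthy muscle. Among calpains, Capn3, a muscle calpain of the sarcomere, fell to 5.98 FPKM in 4T1 muscle, against 50.7 FPKM in healthy muscle and Capn1 to 15.2 FPKM in 4T1 muscle, against 37.7 FPKM in healthy muscle. Cast, the calpain inhibitor, had 66.7 FPKM in 4T1 muscle, against 21.8 FPKM in healthy muscle. Of 50 ubiquitin-specific proteases 13 were listed, 12 higher, with Usp3 at 50.4 FPKM in 4T1 muscle, against 8.91 FPKM in healthy muscle.

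Genes known to answer to glucocorticoids rose together. Of 40 chosen 31 were listed, 77.5% of the list against 32.8% of all genes tested, and all 31 were higher, with a median log2 ratio of 3.61. The list, like the others, was chosen with earlier results of these data known, so these shares are no test of enrichment. Fkbp5, a chaperone of the receptor, had 187 FPKM in 4T1 muscle, against 14.5 FPKM in healthy muscle, and Tsc22d3 (GILZ) had 393 FPKM in 4T1 muscle, against 104 FPKM in healthy muscle. Klf15, a regulator of amino acid breakdown, had 145 FPKM in 4T1 muscle, against 11.8 FPKM in healthy muscle, and Per1, a clock gene, had 96.4 FPKM in 4T1 muscle, against 13.05 FPKM in healthy muscle. Cebpd and Cebpb, factors of the acute phase, had 225 FPKM in 4T1 muscle, against 9.58 FPKM in healthy muscle for Cebpd and 87.8 FPKM in 4T1 muscle, against 12.2 FPKM in healthy muscle for Cebpb. Foxo1 and Foxo3 had 54.8 FPKM in 4T1 muscle, against 5.72 FPKM in healthy muscle for Foxo1 and 23.7 FPKM in 4T1 muscle, against 5.48 FPKM in healthy muscle for Foxo3. Cdkn1a (p21), an inhibitor of the cell cycle, had 397 FPKM in 4T1 muscle, against 29.2 FPKM in healthy muscle, and Gadd45a had 32.4 FPKM in 4T1 muscle, against 11.3 FPKM in healthy muscle. Many of these genes also answer to fasting, cytokines or stress, and the members overlap other lists named here.

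**Figure D4:**
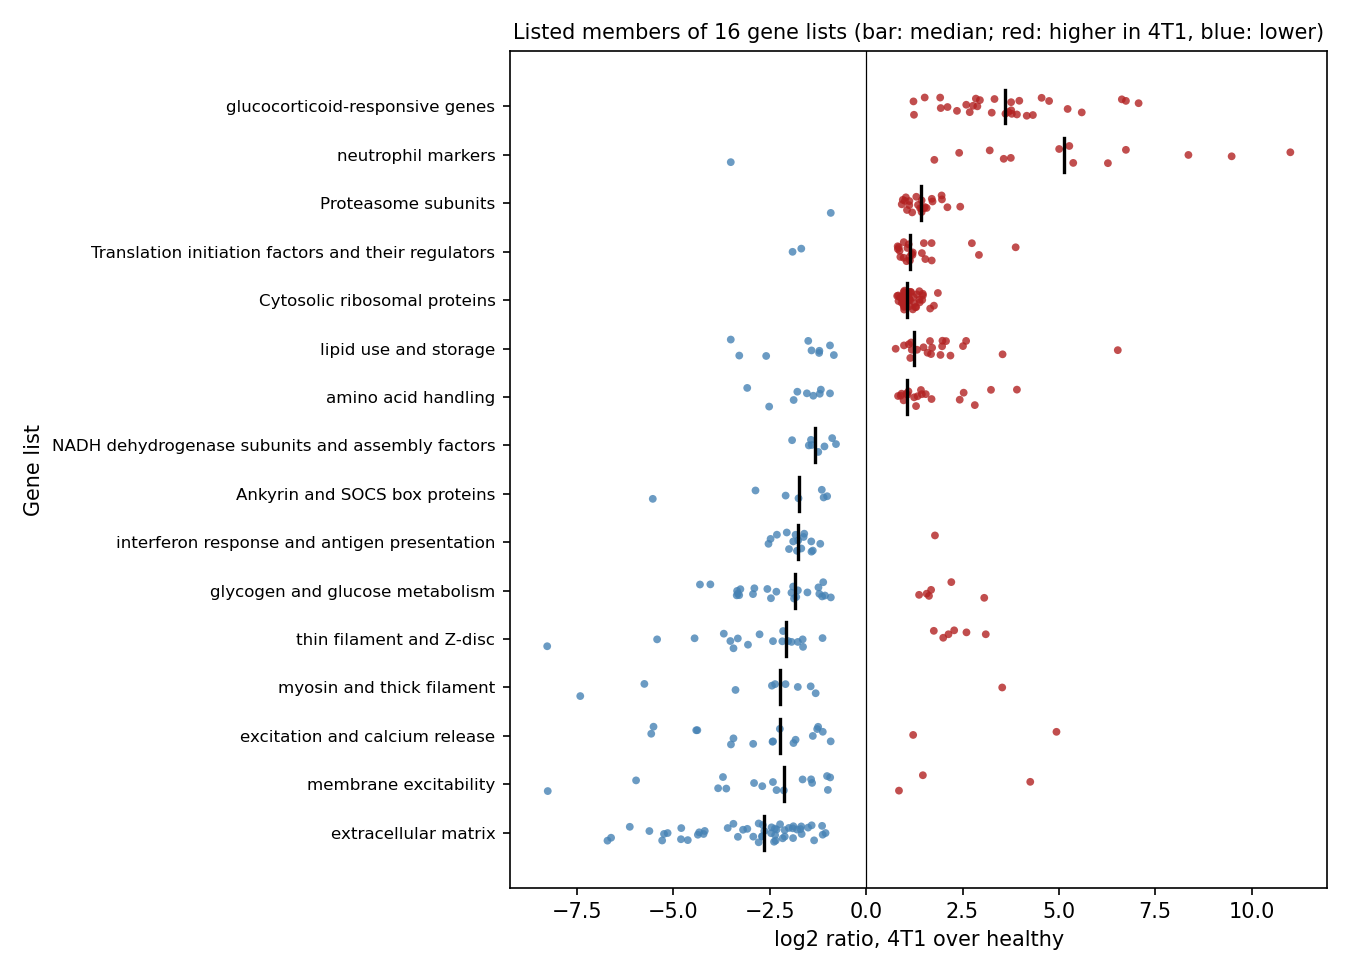
Each point is a listed member of 1 of 16 gene lists, placed by its log2 ratio of 4T1 over healthy muscle (red, higher in 4T1; blue, lower), and black bars are list medians. Glucocorticoid-responsive genes have a median of 3.61 and ribosomal proteins a narrow range around 1.06, while extracellular matrix members are all below 0.

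The matrix around the fibres was lower in each gene listed. Of 90 genes of the extracellular matrix 51 were listed, 56.7% of the list, all lower, with a median log2 ratio of -2.64. Col1a1 and Col1a2, the chains of collagen I, had 1.01 FPKM in 4T1 muscle, against 105 FPKM in healthy muscle for Col1a1 and 3.95 FPKM in 4T1 muscle, against 149.6 FPKM in healthy muscle for Col1a2. Col3a1 had 1.86 FPKM in 4T1 muscle, against 65.8 FPKM in healthy muscle. The chains of collagen VI, which binds fibres to their surroundings, were all lower: Col6a1 had 1.26 FPKM in 4T1 muscle, against 22.99 FPKM in healthy muscle, Col6a2 had 0.737 FPKM in 4T1 muscle, against 20.6 FPKM in healthy muscle and Col6a3 had 0.674 FPKM in 4T1 muscle, against 33.2 FPKM in healthy muscle. Fmod (fibromodulin), a proteoglycan of tendon, had 0.753 FPKM in 4T1 muscle, against 73.8 FPKM in healthy muscle, and the more abundant Sparc and Dcn had 53.4 FPKM in 4T1 muscle, against 251 FPKM in healthy muscle for Sparc and 68.02 FPKM in 4T1 muscle, against 181 FPKM in healthy muscle for Dcn. Markers of fibroblasts and tendon had 17 of 25 listed (68.0%), all lower. These markers include Fmod, named above, so they are not independent of the matrix genes. They summed to 186 FPKM in 4T1 muscle and 761 FPKM in healthy muscle, and the part of cell number in the matrix result was not tested.

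Matrix proteases and their inhibitors were less uniform, with 8 higher and 12 lower of 20 listed among 39, and a median log2 ratio of -1.28. At 10 FPKM or more, 4 were higher and 2 lower. Adamts2, which trims procollagen, had 109 FPKM in 4T1 muscle, against 5.55 FPKM in healthy muscle, and Mmp9, a gelatinase of neutrophils, had 10.02 FPKM in 4T1 muscle, against 0.312 FPKM in healthy muscle. Serpina3n, a protease inhibitor, had 41.9 FPKM in 4T1 muscle, against 2.51 FPKM in healthy muscle, and the inhibitor Timp2 had 10.9 FPKM in 4T1 muscle, against 31.98 FPKM in healthy muscle.

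Most listed signals between cells were lower. Of 58 ligands 25 were listed, 21 lower and 4 higher. Igf1, the chief growth factor of muscle, had 0.324 FPKM in 4T1 muscle, against 2.61 FPKM in healthy muscle, and Igf2 had 4.42 FPKM in 4T1 muscle, against 9.82 FPKM in healthy muscle. Fndc5, the precursor of irisin, had 14.8 FPKM in 4T1 muscle, against 32.9 FPKM in healthy muscle, and Fstl1, a secreted follistatin-like protein, had 4.11 FPKM in 4T1 muscle, against 21.2 FPKM in healthy muscle. The 4 higher ligands of this list stayed low, the most abundant being Gdf5, a BMP family member, at 2.098 FPKM in 4T1 muscle, against 0.132 FPKM in healthy muscle. Of 72 receptors 27 were listed (37.5%, against 32.8% of all tested genes), 17 higher and 10 lower. Il6ra, the receptor of interleukin-6, had 40.96 FPKM in 4T1 muscle, against 0.849 FPKM in healthy muscle, and Acvr1b (ALK4), a receptor of activin and myostatin, had 82.9 FPKM in 4T1 muscle, against 18.2 FPKM in healthy muscle. Igf1r and Insr had 4.74 FPKM in 4T1 muscle, against 0.746 FPKM in healthy muscle for Igf1r and 26.6 FPKM in 4T1 muscle, against 11.2 FPKM in healthy muscle for Insr. Ghr, the growth hormone receptor, had 26.2 FPKM in 4T1 muscle, against 53.6 FPKM in healthy muscle (q = 0.0254 in the authors' deposited table).

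Most listed transcripts known from blood cells were higher in 4T1 muscle, with exceptions by cell type. Of 40 neutrophil markers 14 were listed (35%, against 32.8% of all tested genes), 13 higher, with a median log2 ratio of 5.14 over the listed members. The listed members summed to 2277 FPKM in 4T1 muscle and 58.2 FPKM in healthy muscle. The 4T1 sum came largely from S100a8 and S100a9. The largest part of the healthy sum was G0s2, the lipase inhibitor given above and the 1 lower member. It had 2.74 FPKM in 4T1 muscle, against 31.2 FPKM in healthy muscle. Cxcr2, the chemokine receptor that recruits neutrophils, had 6.22 FPKM in 4T1 muscle, against 0.0189 FPKM in healthy muscle (q = 0.0389 in the authors' deposited table), and Csf3r, the receptor of G-CSF, had 11.4 FPKM in 4T1 muscle, against 0.275 FPKM in healthy muscle. Granule genes such as Camp, Ngp and Ltf, and the lineage marker Ly6g, are not in the table. The part of invading neutrophils in the changes of genes shared with muscle, Lcn2 and Mmp9 among them, was not tested.

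Macrophage and monocyte markers were divided. Of 35, 16 were listed, 11 higher and 5 lower, and they summed to 375 FPKM in 4T1 muscle and 106 FPKM in healthy muscle. Cd68, a lysosomal protein, had 51.8 FPKM in 4T1 muscle, against 2.64 FPKM in healthy muscle, Gpnmb had 24.1 FPKM in 4T1 muscle, against 0.924 FPKM in healthy muscle, and Lgals3 (galectin-3) had 40.2 FPKM in 4T1 muscle, against 3.19 FPKM in healthy muscle. Mrc1 and Folr2, markers of resident macrophages, were lower, with Mrc1 at 0.398 FPKM in 4T1 muscle, against 2.35 FPKM in healthy muscle and Folr2 at 0.467 FPKM in 4T1 muscle, against 2.27 FPKM in healthy muscle. Emr1, a general marker of mouse macrophages, was lower too, with a log2 ratio of 4T1 over healthy muscle of -2.066. For Ms4a7 this ratio was -3.532 (q = 0.0290 in the authors' deposited table). Of 20 red cell markers 8 were listed, 5 higher and 3 lower. The globins Hba-a1 and Hbb-b1 had 203 FPKM in 4T1 muscle, against 35.8 FPKM in healthy muscle for Hba-a1 and 254 FPKM in 4T1 muscle, against 48.6 FPKM in healthy muscle for Hbb-b1, and as near-identical copies they can share reads with Hba-a2 and Hbb-b2. Tfrc, the transferrin receptor, had 2.54 FPKM in 4T1 muscle, against 119 FPKM in healthy muscle, and Bpgm, which makes bisphosphoglycerate, had 5.77 FPKM in 4T1 muscle, against 62.4 FPKM in healthy muscle. Of 30 lymphocyte markers 4 were listed (13.3%, against 32.8% of all tested genes), 3 higher and 1 lower. Ptprc (CD45) had 2.63 FPKM in 4T1 muscle, against 0.323 FPKM in healthy muscle, while Ighm, the heavy chain of immunoglobulin M, fell to 1.201 FPKM in 4T1 muscle, against 102 FPKM in healthy muscle. Endothelial and mural markers had 12 of 33 listed (36.4%, against 32.8% of all tested genes), 9 of them higher. Among these was Pecam1, at 52.01 FPKM in 4T1 muscle, against 27.2 FPKM in healthy muscle (q = 0.0165 in the authors' deposited table). The 3 lower members were Kdr, Vcam1 and Cspg4. Their log2 ratios of 4T1 over healthy muscle were -1.867, -1.334 (q = 0.0105 in the authors' deposited table) and -1.247.

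Of 26 epithelial markers of a mammary tumour, Lgals4 (galectin-4) was the 1 listed, at 20.8 FPKM in 4T1 muscle, against 5.21 FPKM in healthy muscle, and the others, Epcam and Krt8 among them, are not in the table. Adipocyte markers had 2 of 15 listed, Schwann cell markers 3 of 12 and liver transcripts 4 of 32. Among 54 interferon-responsive and antigen-presenting genes, 17 were listed and 16 of those were lower. This share of 31.5% is close to the 32.8% of all tested genes, and 8 of the 16 had q of 0.01 or less in the authors' deposited table. Cd74, the invariant chain of MHC class II, had 5.64 FPKM in 4T1 muscle, against 19.6 FPKM in healthy muscle. Most of these genes were below 10 FPKM in both groups.

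Of the 4334 genes, 1196 have no entry in the C26m2 table, which lists 4832 genes of the CD2F1 comparison. Absence there means only that the gene did not pass the authors' test in C26m2 mice, and no test of the difference between models was possible from 1 value per group. Of these genes 546 were higher and 650 lower in 4T1 muscle, and 398 were abundant, 150 higher and 248 lower. They sat closer to the threshold: 45.8% had q of 0.01 or less in the authors' deposited table, against 76.5% of the 3138 genes listed in both. The median change of the abundant ones was 2.32-fold for higher and 2.12-fold for lower genes, against 2.79-fold and 3.49-fold for abundant genes of both comparisons.

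Several of the steepest increases without an entry for C26m2 are genes known from leukocytes. Pglyrp1, a peptidoglycan-binding granule protein, had 17.8 FPKM in 4T1 muscle, against 0.462 FPKM in healthy muscle, and Ncf4, a subunit of the phagocyte oxidase, had 12.5 FPKM in 4T1 muscle, against 0.995 FPKM in healthy muscle. Slfn4, a schlafen gene of myeloid cells, had 14.1 FPKM in 4T1 muscle, against 0.164 FPKM in healthy muscle. S100a7a, a relative of psoriasin, had 29.2 FPKM in 4T1 muscle, against 0.347 FPKM in healthy muscle. The integrin chains Itgam and Itgb2 of leukocytes, both under 10 FPKM, had 6.46 FPKM in 4T1 muscle, against 0.418 FPKM in healthy muscle for Itgam and 4.56 FPKM in 4T1 muscle, against 0.436 FPKM in healthy muscle for Itgb2, and Coro1a, an actin-binding protein of leukocytes, had 16.7 FPKM in 4T1 muscle, against 2.04 FPKM in healthy muscle. Cd52, a surface glycoprotein of leukocytes, had 11.5 FPKM in 4T1 muscle, against 1.601 FPKM in healthy muscle, and Ifitm1, an interferon-inducible membrane protein, had 25.7 FPKM in 4T1 muscle, against 0.716 FPKM in healthy muscle. In the marker lists, 5 of the 13 higher neutrophil markers and 6 of the 11 higher macrophage and monocyte markers have no entry for C26m2. The same holds for all 3 higher lymphocyte markers. Of all 2303 higher genes 23.7% have no entry, but of the 869 higher genes under 10 FPKM 396 have none. Only 9 of the higher neutrophil, 6 of the higher macrophage and 1 of the higher lymphocyte markers reached 10 FPKM.

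Other steep increases lie in the fibre or in many cell types: Sln and Slc2a1, given above, Wnt11, a secreted Wnt ligand, at 24.1 FPKM in 4T1 muscle, against 3.31 FPKM in healthy muscle, and Chka, choline kinase, at 14.5 FPKM in 4T1 muscle, against 1.32 FPKM in healthy muscle. Adck4, now named Coq8b and needed to make coenzyme Q, had 17.1 FPKM in 4T1 muscle, against 1.71 FPKM in healthy muscle. The uncharacterised Gm15446 had 122 FPKM in 4T1 muscle, against 2.19 FPKM in healthy muscle. By gain in FPKM, ribosomal proteins prevailed, with Rps15 at 861 FPKM in 4T1 muscle, against 399 FPKM in healthy muscle, Rpl35 at 449 FPKM in 4T1 muscle, against 215 FPKM in healthy muscle (q = 0.0346 in the authors' deposited table) and Rps12 at 605 FPKM in 4T1 muscle, against 339.6 FPKM in healthy muscle (q = 0.0423 in the authors' deposited table). Of the 52 ribosomal proteins listed for 4T1 muscle, 44 are also listed for C26m2. Sgk1, a kinase induced by glucocorticoids, was the only one of the 31 glucocorticoid-responsive genes with no entry there, at 352 FPKM in 4T1 muscle, against 149 FPKM in healthy muscle (q = 0.0204 in the authors' deposited table).

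Among losses without an entry for C26m2, Fgfr4, the fibroblast growth factor receptor of regenerating muscle, had 0.953 FPKM in 4T1 muscle, against 32.96 FPKM in healthy muscle, a loss of 34.6-fold. Fam78a had 0.156 FPKM in 4T1 muscle, against 23.8 FPKM in healthy muscle (q = 0.0363 in the authors' deposited table). Casq2, the cardiac and slow form of calsequestrin, had 3.59 FPKM in 4T1 muscle, against 19.1 FPKM in healthy muscle. Fhl1, a LIM protein of the sarcomere, had the largest loss in FPKM, at 496 FPKM in 4T1 muscle, against 1552 FPKM in healthy muscle (q = 0.0113 in the authors' deposited table). Pdlim3, a Z-disc scaffold, had 47.6 FPKM in 4T1 muscle, against 215 FPKM in healthy muscle, and Myoz1 (calsarcin-2) had 553 FPKM in 4T1 muscle, against 1209 FPKM in healthy muscle (q = 0.0396 in the authors' deposited table). Hspb6, a small heat shock protein, had 459 FPKM in 4T1 muscle, against 1093 FPKM in healthy muscle (q = 0.0161 in the authors' deposited table). Among genes of mitochondria in this group were Ckmt2, given above, Cox7a1, the muscle form of a cytochrome oxidase subunit, at 553 FPKM in 4T1 muscle, against 1186 FPKM in healthy muscle, and Sdhd, of succinate dehydrogenase, at 207 FPKM in 4T1 muscle, against 374 FPKM in healthy muscle (q = 0.0477 in the authors' deposited table). The non-coding imprinted genes H19 and Meg3 had 109 FPKM in 4T1 muscle, against 456 FPKM in healthy muscle for H19 and 36.6 FPKM in 4T1 muscle, against 188 FPKM in healthy muscle for Meg3.

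**Figure D5:**
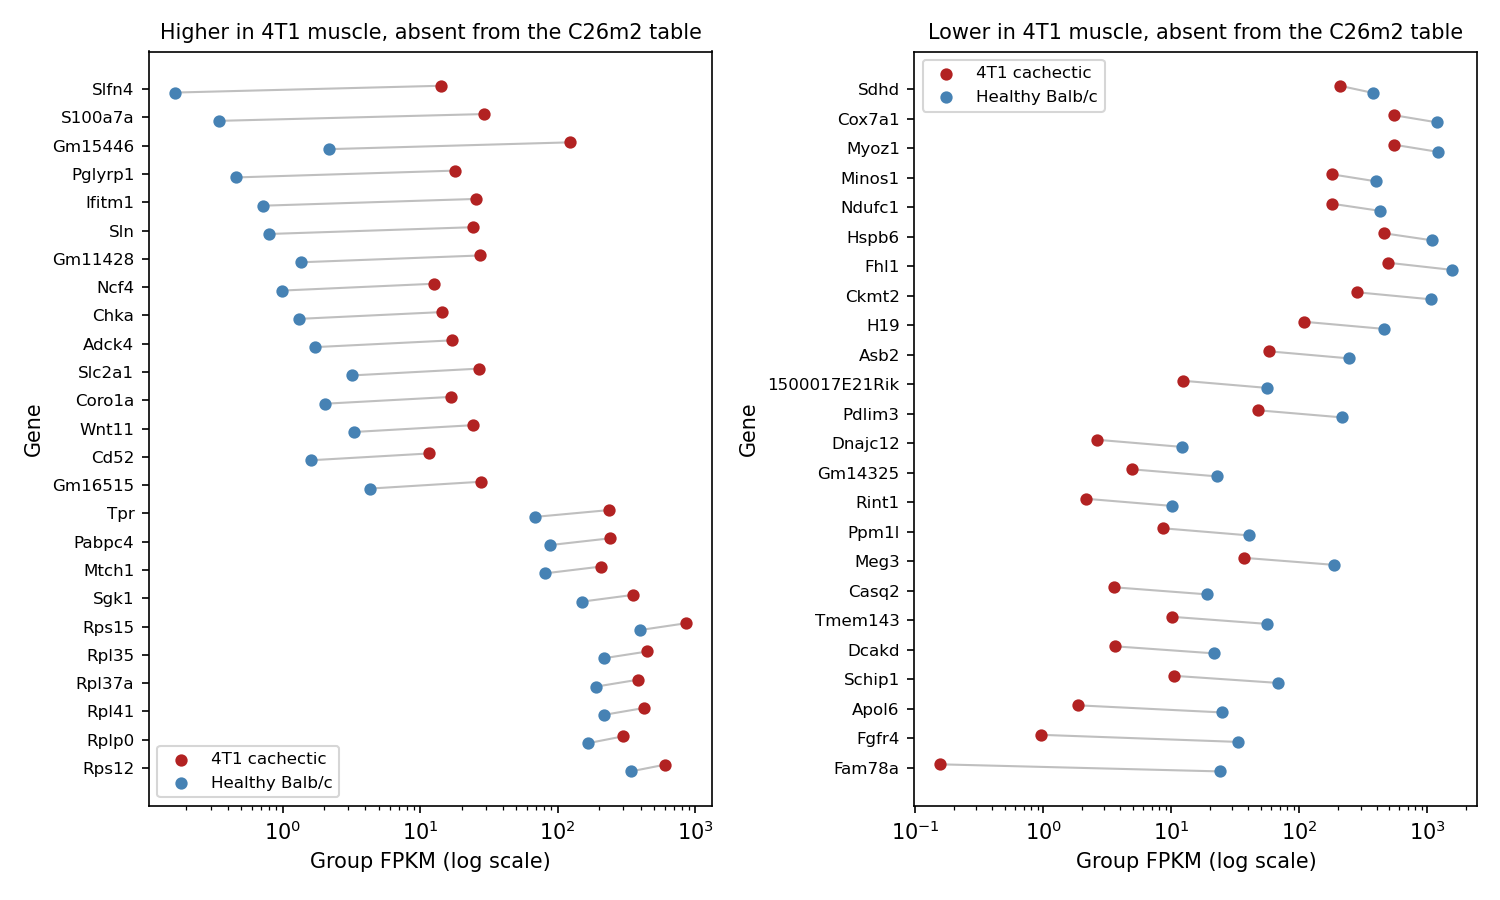
Group FPKM (log scale) of abundant genes listed for 4T1 and absent from the C26m2 table, chosen by the largest ratios and the largest gains or losses in FPKM, in 4T1 cachectic muscle (red) and healthy Balb/c muscle (blue). Slfn4 and S100a7a are below 1 FPKM in healthy muscle, and ribosomal protein genes show small ratios at high FPKM.

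Of the 3138 genes that both comparisons list, 3112 moved in the same direction, and the strains' own healthy mice were the base in each. The change was larger in 4T1 than in C26m2 muscle for 2235 of these 3112, or 71.8%, with a median absolute log2 ratio of 1.61 in 4T1 and 1.36 in C26m2. Among genes lower in both, 1037 of 1368 fell further in 4T1 muscle. Strain and tumour line differ together between the models and cannot be told apart, and this share was not tested. Proteasome subunits ran against it: of 23 listed for both models, 3 had the larger change in 4T1. Ribosomal proteins did not, with 44 of 44 larger in 4T1.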

How the data were processed

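Poly-A RNA of tibialis anterior was sequenced from 8 libraries in 4 groups of 2, prepared, per the labels' protocols, by an Illumina TruSeq RNA kit. Reads were handled by Cuffdiff, Cufflinks 2.2.1 and TopHat2 2.1.0 on the mouse build NCBIM37, per the submitters' processing notes. For annotation release and strand, nothing is stated in the sources used here. Per the file headers, the authors deposited 1 FPKM value per group, the log2 fold change of the cachectic over the healthy group, and the p-value and q-value of their Cuffdiff test. The deposited tables hold called genes only, and all 4334 q-values lie at 0.05 or less. The deposited log2 values differed from the ratio of the listed FPKM by at most 1.43e-05, so no pseudocount had been added. The smallest p was 5e-05, shared by 1727 genes.

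Ratios, counts and medians were computed with pandas 2.3.3 and numpy 2.4.6 on Python 3.11.15, and checked on simulated data. No test was run, since neither SD nor depth can be had from group values, and with no animal named for any library the authors' p-values may measure technical spread alone. The number of genes tested was estimated as q times rank over p, which ran from 13178 to 13337 (median 13218). Genes were matched between the 4T1 and C26m2 tables by gene identifier. Gene names stored as dates (5 genes) were restored from the identifier.

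Named genes were the 15 largest increases and decreases by ratio and the 10 largest gains and losses in FPKM, among genes of 10 FPKM or more and again among those absent from the C26m2 table. Up to 4 genes per direction were named in each list, with the markers and genes listed in opposite directions in the models; others named beside them were chosen after their values were seen. The 32 lists and 24 families were chosen with earlier results of these data known, and family definitions were refined after the table was seen. Alternatives were a q of 0.01, other FPKM limits, 1 FPKM added before ratios, and matching by symbol. Transcript length and GC came from GENCODE M21 by identifier. Single values of a few list members are not reported here, though the counts include them.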

Additional observations from a re-analysis of the deposited data

Results flagged for a closer look

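At 10 FPKM or more, 9 genes were listed in both models with opposite directions, and the difference itself was not tested. Higher in 4T1 and lower in C26m2 muscle were Hp (haptoglobin, which binds free haemoglobin), Anxa1 (annexin A1) and Arhgdib. Their log2 ratios of 4T1 over healthy muscle were 4.486 for Hp, 1.770 for Anxa1 and 1.102 for Arhgdib. Hp had 17.96 FPKM in 4T1 muscle, against 0.801 FPKM in healthy muscle, and 2.98 FPKM in C26m2 muscle, against 7.79 FPKM in healthy CD2F1 muscle. Anxa1 had 37.7 FPKM in 4T1 muscle, against 11.1 FPKM in healthy muscle, and 4.79 FPKM in C26m2 muscle, against 11.9 FPKM in healthy CD2F1 muscle.

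Lower in 4T1 and higher in C26m2 muscle were 6 genes, with log2 ratios in 4T1 of -5.971 for Cbx8, -2.483 for Zhx2, -1.772 for Myl3, -1.015 for Mllt11, -0.876 for Klhl34 and -0.848 for Trp53i11. In the authors' deposited table q was 0.0297 for Mllt11, 0.0289 for Klhl34 and 0.0444 for Trp53i11. Cbx8, a Polycomb protein, had 0.365 FPKM in 4T1 muscle, against 22.9 FPKM in healthy muscle, and 25.5 FPKM in C26m2 muscle, against 0.7595 FPKM in healthy CD2F1 muscle. Myl3, the slow myosin light chain, had 3.66 FPKM in 4T1 muscle, against 12.5 FPKM in healthy muscle, and 16.3 FPKM in C26m2 muscle, against 9.43 FPKM in healthy CD2F1 muscle. The 9 genes are among 1929 abundant genes that both comparisons list.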

How the results depend on the processing

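None of the alternatives could turn the direction of a named gene, since 1 FPKM added to both values keeps the sign of a ratio. The other alternatives only select genes. With 1 FPKM added, the log2 ratio of 76 of 390 named genes moved by more than the standard error that their p-value implies. For genes at the smallest p of 5e-05 this standard error is an upper limit, so 76 is a minimum. With 1 FPKM added and at least 2-fold required, 1507 genes were higher and 1191 lower, against 2303 and 2031, and the median log2 ratios became 1.19 and -1.10, against 1.48 and -1.63. With 10 FPKM required in both groups, 796 abundant genes were higher and 392 lower, against 1434 and 893. A limit of 20 FPKM left 567 lower abundant genes. Genes absent from the C26m2 table numbered 274 higher and 274 lower at q of 0.01 or less, against 546 and 650. The other alternatives for these counts stayed within 1.5 times. Of 56 lists and families, the leading direction turned in 3 at q of 0.01 (ubiquitin-conjugating enzymes, zinc finger proteins, and tubulins and kinesins) and in 2 at 10 FPKM or more (matrix proteases and inhibitors, and zinc finger proteins). At q of 0.01, 14 of the 56 fell by over 1.5 times in their leading direction, among them endothelial and mural markers (5, against 9), mitochondrial ribosomal proteins (7, against 11) and complex I (5, against 8). No paired analysis was possible because the tables hold 1 value per group, which also left no replicate to leave out. Depth is unknown, and an FPKM well below 1 may rest on few reads, so folds against such values are the least certain.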

Other observations

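Host genes of small nucleolar RNAs, whose introns hold the guide RNAs of ribosome modification, were higher in 4T1 muscle wherever listed. The list of 18 was written after values had been seen, and 10 of them were listed (55.6%), all higher, with a median log2 ratio of 2.67. Gas5 had 454 FPKM in 4T1 muscle, against 28.1 FPKM in healthy muscle, and Snhg12 had 165 FPKM in 4T1 muscle, against 6.92 FPKM in healthy muscle. Zfas1, deposited as 1500012F01Rik, had 129 FPKM in 4T1 muscle, against 12.4 FPKM in healthy muscle. All 10 are also listed as higher in the C26m2 table.

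Imprinted genes, expressed from the copy of 1 parent, had 13 of 33 listed (39.4%, against 32.8% of all tested genes), 4 higher and 9 lower, in a list also written after values had been seen. Rian, a non-coding RNA of the same imprinted cluster as Meg3, had 2.13 FPKM in 4T1 muscle, against 85.5 FPKM in healthy muscle, a loss of 40.2-fold, and 1.44 FPKM in C26m2 muscle, against 4.78 FPKM in healthy CD2F1 muscle. The cluster's Mirg had 0.942 FPKM in 4T1 muscle, against 6.81 FPKM in healthy muscle, and Meg3 is given above. Igf2 and H19, neighbours on another imprinted cluster, were both lower. Plagl1, a zinc finger regulator of imprinted genes, had 3.44 FPKM in 4T1 muscle, against 0.533 FPKM in healthy muscle, and Peg3 had 23.4 FPKM in 4T1 muscle, against 12.4 FPKM in healthy muscle (q = 0.0429 in the authors' deposited table). Of the 13 listed genes, 6 have no entry for C26m2, against 27.6% of all 4334 listed genes.

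By annotation, 98.4% of the 4334 genes matched, and 4172 were protein coding. The median length of the longest transcript was 3423 bases for higher and 3486 bases for lower genes, and the median GC content was 51.0% for higher and 49.2% for lower genes.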
